A study of Homo sapiens with 30 samples.

Results

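The regions described here were stretches of open chromatin that had a peak in cells taken from anterior neural ectoderm into hindbrain medium, labelled aNE_H, and in no other population of the series. Overlapping peaks of all 10 lists on the 22 autosomes were joined, 1 shared base being enough, and a list counted as open wherever it had a peak in the joined region. Of 476170 merged regions, 8683 were open in aNE_H and in none of the other 9 lists, which is 1.82% of all regions (1.79% to 1.86%, the Wilson 95% interval) and 4.69% of the 185170 regions open in aNE_H (4.59% to 4.79%). These 8683 regions are called members. They were chosen by the presence and absence of peaks in these same lists, so their number is a description with no test. Wilson intervals throughout cover the counting of regions and not the spread between libraries.

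All cells came from H1, a single wild-type human embryonic stem cell line. Open chromatin was measured by OmniATAC-seq, in which a transposase cuts accessible DNA, in 10 populations with 3 libraries each of 50000 cells. Each population was represented by 1 peak list without scores and without values per library, so the comparisons are between lists and not between conditions, no replicate error can be given, and the read depth is unknown. In bulk cells, fewer cells with an open region and less opening per cell cannot be told apart.

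The populations were pluripotent cells on day 0 (hPSC), ectoderm on day 1 (DE), anterior and posterior neural ectoderm on day 2 (aNE and pNE), and 6 populations on day 4. All but hPSC went through the DE medium, which per the labels held A8301, Trametinib, C59 and LDN193189, inhibitors of the NODAL, MEK, WNT secretion and BMP steps. The aNE cells then had A8301, LDN193189 and C59, while pNE cells had A8301, LDN193189, the retinoid TTNPB at 50 nM, FGF2 and XAV939, a WNT pathway inhibitor. Thiazovivin was present in both day 2 media. From day 2 each was moved to telencephalon medium (aNE_T, pNE_T), midbrain medium (aNE_M, pNE_M) or hindbrain medium (aNE_H, pNE_H). The aNE_H cells therefore had no TTNPB before day 2. The composition of the hindbrain medium is not given in the sources used here. Plating for the day 4 populations was 75000 cells per square cm after anterior induction but 150000 after posterior induction, so origin and plating density cannot be told apart.

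The hindbrain forms behind the boundary with the midbrain, where cells that express OTX2 meet cells that express GBX2. WNT1 and FGF8 are the signals made at this boundary, and EN1, EN2, PAX2, PAX5 and PAX8 are transcription factors that act there. Further back, retinoic acid and WNT signals pattern the neural tube, and HOX genes are switched on in nested domains of the hindbrain and spinal cord. Open regions away from promoters often hold enhancers, which act on genes at a distance.

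Few members lay at a gene start, and those that did are shown because their sequence could be read from the RefSeq promoter table of GRCh38.p14. That table covers 250 bases before and 50 after each listed start. Of its 33558 different windows of 300 bases, 47 overlapped a member; these belonged to 44 members and 44 genes, of which 21 were protein-coding and 23 were long noncoding RNA genes. The 5 sequences below are the 250 bases before a start, read 5′ to 3′ on the gene's strand, and capitals mark the bases that the member covered. They are the 4 protein-coding starts of which a member covered at least 200 of the 300 bases, and the start under a member that was one of the widest. CX3CR1, the fractalkine receptor of microglia, had its sequence at chr3:39281736-39281985 on the minus strand, and the member covered all 250 bases. XAF1, which binds the apoptosis inhibitor XIAP, had it at chr17:6755197-6755446 on the plus strand, with 193 bases covered. NFIB, a nuclear factor I transcription factor, had it at chr9:14306846-14307095 on the minus strand, with 215 bases covered. CDKL1, a cyclin-dependent kinase-like protein, had it at chr14:50363955-50364204 on the minus strand, with 158 bases covered. WT1, the Wilms tumour transcription factor, had it at chr11:32400401-32400650 on the minus strand, with 119 bases covered. The NFIB and WT1 starts are inner ones and not the outermost starts. The genes span chr9:14081843-14532077 and chr11:32387775-32435539.
CX3CR1: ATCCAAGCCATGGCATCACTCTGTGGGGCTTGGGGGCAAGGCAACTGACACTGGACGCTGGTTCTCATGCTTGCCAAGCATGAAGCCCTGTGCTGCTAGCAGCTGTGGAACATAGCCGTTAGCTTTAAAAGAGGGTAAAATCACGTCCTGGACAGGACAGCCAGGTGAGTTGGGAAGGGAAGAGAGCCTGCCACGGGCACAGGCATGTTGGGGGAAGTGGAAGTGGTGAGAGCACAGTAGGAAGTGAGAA
XAF1: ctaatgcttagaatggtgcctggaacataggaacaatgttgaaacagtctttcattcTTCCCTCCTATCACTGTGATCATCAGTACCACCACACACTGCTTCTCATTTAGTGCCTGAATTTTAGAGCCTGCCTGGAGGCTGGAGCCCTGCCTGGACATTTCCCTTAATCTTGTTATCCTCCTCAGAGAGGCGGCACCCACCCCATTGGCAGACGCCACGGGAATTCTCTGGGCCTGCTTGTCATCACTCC
NFIB: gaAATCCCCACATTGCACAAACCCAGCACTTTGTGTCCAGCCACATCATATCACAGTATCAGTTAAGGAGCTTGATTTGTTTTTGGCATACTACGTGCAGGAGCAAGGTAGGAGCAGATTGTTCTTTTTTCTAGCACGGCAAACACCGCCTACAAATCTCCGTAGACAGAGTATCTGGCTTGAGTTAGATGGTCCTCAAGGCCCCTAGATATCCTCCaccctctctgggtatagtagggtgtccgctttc
CDKL1: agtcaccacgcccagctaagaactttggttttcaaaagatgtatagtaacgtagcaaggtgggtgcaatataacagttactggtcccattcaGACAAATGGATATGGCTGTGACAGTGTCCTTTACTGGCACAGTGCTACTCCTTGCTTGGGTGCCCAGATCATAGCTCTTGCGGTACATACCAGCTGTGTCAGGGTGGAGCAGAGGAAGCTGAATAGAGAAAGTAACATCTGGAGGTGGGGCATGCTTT
WT1: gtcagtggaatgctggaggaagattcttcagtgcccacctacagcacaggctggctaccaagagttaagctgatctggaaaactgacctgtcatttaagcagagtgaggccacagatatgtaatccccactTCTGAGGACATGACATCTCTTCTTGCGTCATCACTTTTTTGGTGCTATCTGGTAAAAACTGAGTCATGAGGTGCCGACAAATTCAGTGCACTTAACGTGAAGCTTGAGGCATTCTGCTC
The genes differ in what they do, and none is on the hindbrain or boundary lists described below.

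The letters of 14 motifs were searched on both strands in all 33558 windows. CAGCTG, the E-box core of bHLH factors, was in 10 of the 47 windows under members, 21.3% (12.0% to 34.9%), against 14.1% of all windows. GATAA, the GATA core, was in 11 of 47, 23.4% (13.6% to 37.2%), against 20.5%. ACAAAG, a SOX core, was in 4 of 47, 8.51% (3.36% to 19.9%), against 13.7%. CTTTGAT, the TCF/LEF core, was in 2 of 47, 4.26% (1.17% to 14.2%), against 2.26%. The MEIS core TGACAG was in 12.8% against 13.1%, the OTX core TAATCC in 6.38% against 5.62%, the AP-1 site TGANTCA in 6.38% against 6.55%, and AGGTCA, a single nuclear receptor site, in 14.9% against 12.1%. The homeodomain core TAATTA and the POU site ATTTGCAT were in 1 window each, 2.13%, against 4.4% and 1.61%. The HOX-PBX site TGATTGAT, the CTCF core, and the retinoic acid receptor repeats with 5 and with 1 base between their single sites were in 0 of 47, an upper limit of 7.56%. In all windows these last 4 were in 0.42%, 0.0149%, 0.00298% and 0.0179%. Each share in all windows lay inside the interval of the member windows. Only 47 windows entered, and the intervals were wide. Among the printed sequences, the E-box core was found in CX3CR1 and CDKL1, the GATA core in XAF1, the SOX core in NFIB and the MEIS core in CDKL1 and WT1. The WT1 sequence also held the OTX core, the AP-1 site and the single nuclear receptor site. In WT1 only the AP-1 site lay in the bases under the member, and the MEIS and OTX cores and the nuclear receptor site lay outside them. The median GC content was 56% in the windows under members and 58% in all windows. These matches describe start windows only; the sequences of the other members were not analysed here.

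On the autosomes aNE_H held 196961 peaks, between the 162041 of the shortest list, aNE, and the 302355 of the longest, pNE_H. The share of a list's open regions that no other list had ran from 1.6% in aNE to 17.3% in pNE_H, so the 4.69% of aNE_H lay between these ends. It was above the 3.39% of aNE_T (6155 regions, 1.29% of all regions) and the 3.08% of aNE_M (6117 regions, 1.28% of all regions). It was below pNE_T with 8.33%, pNE_M with 8.8% and pNE_H with 17.3% (50360 regions, 10.6% of all regions). When every list was cut to its widest 162041 peaks, the aNE_H share was 6.04%, with 4.38% in aNE_T, 3.03% in aNE_M and 8.83% in pNE_H. The order of aNE_H above its 2 anterior sisters and below the 3 posterior day 4 lists was the same in both.

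**Figure D1:**
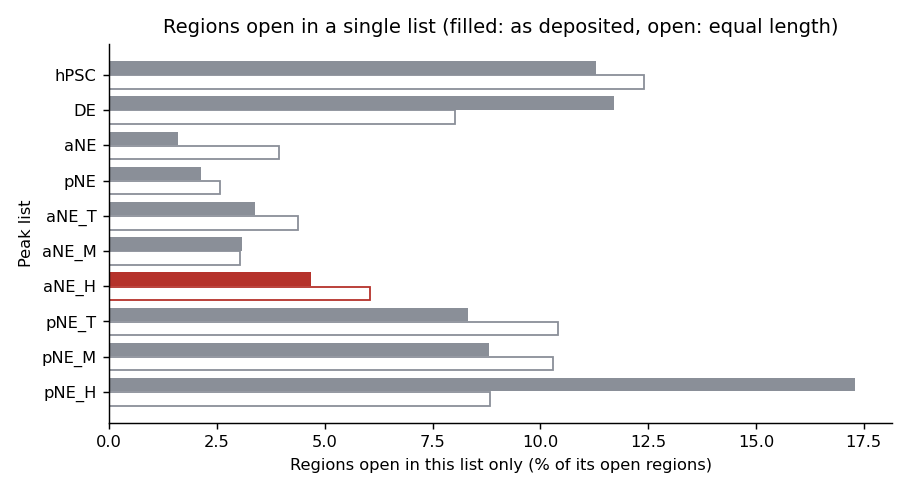
Share of each list's open autosomal regions that no other list had (x axis, %), for the 10 lists (y axis); filled bars use the lists as deposited and open bars the widest 162041 peaks of each. The aNE_H bar, in red, is 4.69% as deposited and 6.04% at equal length, and pNE_H changes most, from 17.3% to 8.83%.

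As a check of the label, peaks at the starts of hindbrain genes were counted in each list. Of 12 genes on the hindbrain list with an entry in the promoter table, 6 had a peak at a start in aNE_H, as in aNE_T and aNE_M, against 10 in pNE_H and pNE_T and 9 in pNE_M. The number was 8 in hPSC, DE and pNE and 7 in aNE, so pluripotent cells had more than aNE_H. EGR2, HOXA3 and GBX2 had a peak at a start in all 10 lists. HOXB1 had one in every list but aNE_T, aNE_M and aNE_H. The start of HOXA2, a HOX gene of the front hindbrain, had a peak in pNE, pNE_T, pNE_M and pNE_H and in no other list. OTX2, the fore- and midbrain factor, had a peak at a start in aNE_H and in 7 other lists, but not in pNE_T or pNE_H. Of 654 regions within 50 kb of hindbrain-list genes, 263 were open in aNE_H, 292 in aNE_T, 293 in aNE_M and 458 in pNE_H. Of all 476170 regions, these lists were open at 185170, 181467, 198810 and 290377 in the same order, so they also differ in length. These markers did not set the aNE_H list apart from the other anterior-derived day 4 lists, so aNE_H is used here for the medium the cells were given. A peak shows an open start and not expression of the gene.

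The members were narrow. Each was a single aNE_H peak, with a median width of 162 bp, quartiles of 135 and 204 bp and a maximum of 771 bp. The aNE_H peaks became wider with the number of lists open at the region: the median was 173 bp at regions open in 2 lists, 212 bp at 5, 279 bp at 9 and 465 bp at all 10. The narrowest width in the aNE_H list was 126 bp, and 1355 members, 15.6% (14.9% to 16.4%), had exactly that width, against 3.03% of the other 188278 aNE_H peaks. Only 417 members, 4.8%, reached 300 bp, against 49.1% of the other aNE_H peaks. Regions open in 1 list were narrow in the other lists too, with medians from 149 bp in pNE to 173 bp in pNE_T. Merging can only make a region wider when more lists have peaks there, but the widths given are of aNE_H peaks before merging. The rule still bears on these widths, since a wider peak has more bases that can meet a peak of another list. Narrow members and wider shared peaks are thus in part set by the rule, and how far was not tested. The lists carry no score, so how far these narrow peaks lay from the threshold of the caller was not tested.

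**Figure D2:**
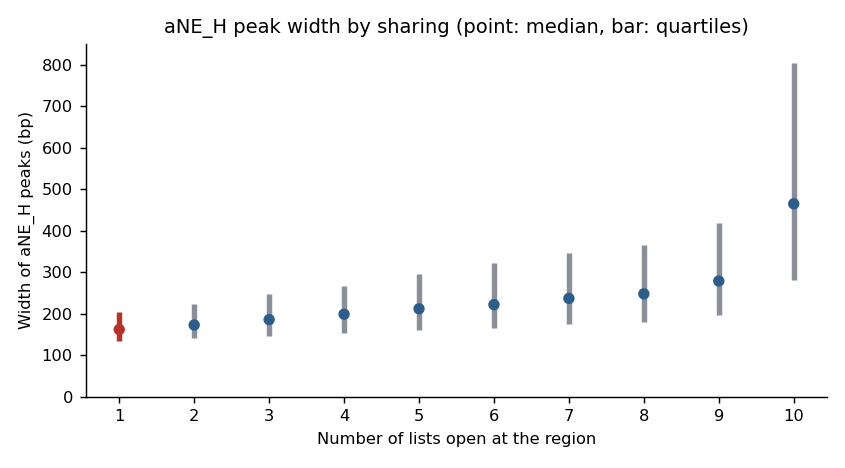
Width of aNE_H peaks before merging (y axis, bp) by the number of lists open at their region (x axis, 1 to 10); points are medians and bars run between quartiles. The members, in red, have a median of 162 bp, and the median rises to 465 bp at regions open in all 10 lists.

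Just inside the rule, 621 members, 7.15%, had a peak of another list within 100 bp. Just outside it, 8544 aNE_H regions were open in exactly 1 other list, and in 469 of them, 5.49%, the peaks overlapped by at most 50 bp. The median overlap there was 126 bp. The nearest peak of any other list lay a median of 1.11 kb away from a member (quartiles 0.34 and 3.06 kb). It was within 1 kb for 4130 members, 47.6%, and beyond 10 kb for 384, 4.42%. The same distances for randomly placed sites were not computed, so nearness to other peaks is not shown to be a trait of members.

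By list, a peak of pNE_H lay within 1 kb of 29.8% of members, followed by aNE_M with 25.8%, DE and pNE with 22.3% each and pNE_M with 20.3%. The shares were 19.2% for aNE_T, 18.6% for hPSC, 17.5% for pNE_T and 15.1% for aNE, the list of the cells' own day 2 precursor. The pNE_H list is the longest and aNE the shortest, and a longer list has more peaks to be near. The regions open only in aNE_M were closer to the same lists, with 34.9% within 1 kb of a pNE_H peak and 20.7% within 1 kb of an aNE peak. Of the members, 23.2% lay within 1 kb of an aNE_H peak that was shared with other lists, and 76.0% within 10 kb. The regions open only in aNE_M lay nearer to shared peaks of their own list, with 29.1% within 1 kb and 82.1% within 10 kb.

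The list that shared most of the regions just outside the rule was pNE_H, the population given the same medium after posterior induction. It alone shared 2780 of the 8544 aNE_H regions open in 2 lists, 32.5% (31.6% to 33.5%). The aNE_M list shared 2099, 24.6% (23.7% to 25.5%), then pNE_M 870, pNE 810, DE 675, hPSC 636, pNE_T 302 and aNE_T 271. The aNE list, from which the cells came, shared 101, 1.18% (0.974% to 1.43%). Relative to list length, the order of the first pair was not the same: aNE_M shared 10.6 of these regions per 1000 of its open regions and pNE_H 9.57. With all lists at their widest 162041 peaks, aNE_M shared 2157 of 8126 such regions, 26.5%, pNE 15.8%, pNE_M 14.4% and pNE_H 13.9%. The share of aNE, the shortest list, was then 4.97%, with 9.14% in hPSC, 5.41% in aNE_T, 5.23% in DE and 4.64% in pNE_T. The pNE_H list was thus first as deposited and not at equal length, where aNE_M was first.

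**Figure D3:**
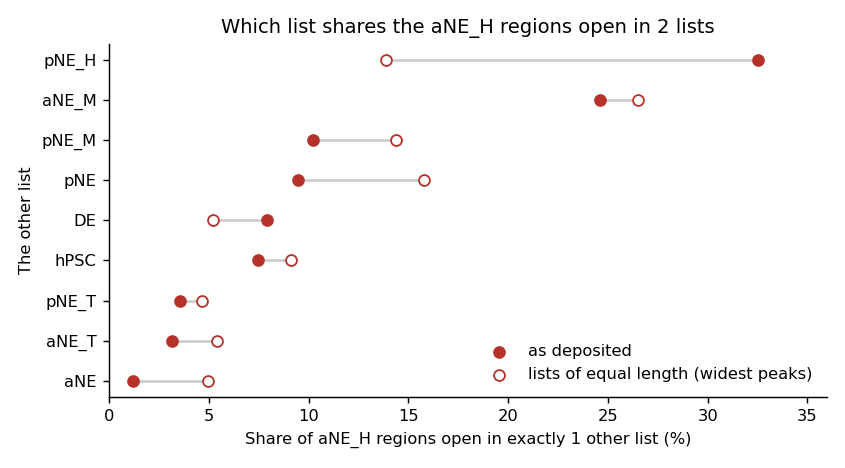
Share of the aNE_H regions open in exactly 1 other list (x axis, %) that each other list held (y axis); filled points use the lists as deposited and open points the widest 162041 peaks of each. The pNE_H share falls from 32.5% to 13.9% at equal length, and that of aNE_M goes from 24.6% to 26.5%.

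Members were mostly away from gene ends and starts. Of the 8683 members, 5300, 61.0% (60% to 62.1%), lay inside a gene and 3383 outside, against 64.1% inside for the other aNE_H regions. A gene end, either the first or the last base, lay within 1 kb of 571 members, 6.58% (6.07% to 7.12%), against 16.9% of the other aNE_H regions and 11.2% of all regions. The share was 7.37% for regions open only in aNE_M, 7.91% for those only in aNE_T and 6.7% for those only in pNE_H. With chromosome 8 left out, since the promoter table has no entry there, a RefSeq start lay within 1 kb of 148 of 8234 members, 1.8% (1.53% to 2.11%), against 10.5% of the other aNE_H regions, 2.65% for aNE_M only and 2.15% for pNE_H only. The median distance to a start was 42.5 kb for members and 30.3 kb for the other aNE_H regions. Width and position go together in these lists: 19.4% of aNE_H regions open in all 10 lists lay within 1 kb of a start, against 2.44% of those open in 2 lists.

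Along the chromosomes, members were scattered. Another member lay within 10 kb of 750 members, 8.64%, and the median distance between neighbours was 93.9 kb. The share of regions that were members ran from 1.19% (0.994% to 1.43%) on chromosome 19, with 114 members, to 2.19% (2.03% to 2.37%) on chromosome 4, with 637. It was 2.18% on chromosomes 13 and 18 and 1.33% on chromosome 15. Chromosome 19 had 151.8 coding genes per 1000 regions, and chromosomes 4, 13 and 18 had 26.5, 21.4 and 20.9. The order was not strict: chromosome 15 had 41.8, while chromosome 21 had 45.6 with a member share of 2.1%. The regions open only in pNE_H also had their lowest share on chromosome 19, 5.6%, with 13.5% on chromosome 4. Those open only in aNE_M were at 1.1% on chromosome 19 and 1.24% on chromosome 4.

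Each member was assigned to the protein-coding gene it lay in or, outside genes, to the nearest. Of 17980 coding genes with a region, 4727 had at least 1 member, 278 had 5 or more and 28 had 10 or more. The 20 genes with the most members held 238 of them, 2.74%. These were mostly long genes: their median length was 682.1 kb against 24.5 kb for all coding genes, and 11 of the 20 were longer than 500 kb. GPC5, a cell-surface glypican, had the most, 18 of 471 regions, 3.82%, of which 9 lay inside the gene. GBE1, the glycogen branching enzyme, had 17 of 270, 6.3%, and ROBO1, the axon guidance receptor for SLIT, had 14 of 361, 3.88%. GRIK2, a kainate receptor subunit, had 13 of 241, 5.39%. LOC124900173 had 13 of 202, 6.44%.

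The protocadherins PCDH10 and PCDH9 had 12 members each, of 242 and 422 regions. The latrophilin receptors ADGRL3 and ADGRL2 had 12 of 305 and 11 of 428, the related receptor ADGRL4 had 10 of 157, and ADGRB3, which binds C1q-like proteins, had 10 of 212. LRRC4C, the netrin-G1 ligand, had 12 of 398, LINGO2 had 11 of 322 and CSMD1 had 11 of 371. GALNT13, a glycosyltransferase, had 11 of 226, and AGA, a lysosomal amidase, had 11 of 255. With members assigned to the nearest gene end instead, GALNT13 had 6 and ADGRL3 had 8. TECRL had 10 of 153, BRINP3 had 10 of 272 and ZEB2, a zinc finger repressor that acts in neural crest, had 10 of 277. Many of these members were only nearest to the gene. Inside the gene lay 0 at PCDH10, AGA, TECRL and ZEB2, 1 each at ADGRL4 and BRINP3, and 3 at GBE1. At LRRC4C and CSMD1, 10 lay inside each gene. The pNE_H list had more single-list regions than aNE_H at 19 of the 20, as over all regions, where the shares were 10.6% and 1.82%. For example, pNE_H had 83 at GPC5, 101 at PCDH9 and 35 at GBE1, which are 17.6%, 23.9% and 13% of the regions there. Over the 4405 genes with at least 30 regions, the median share of members was 1.61%, 4.26% marked the upper 10% and 8.19% the upper 1%.

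EN1, the engrailed homeobox factor of the midbrain-hindbrain boundary, was the shortest gene of the 20 at 5.48 kb, and 10 of its 106 regions, 9.43%, were members. That placed it at rank 19 of the 4405 genes by share. It was also the gene of the 20 at which pNE_H had fewer single-list regions than aNE_H, 7 against 10. Those 7 were 6.6% of the EN1 regions, against 10.6% of all regions. The number of EN1 regions open in no other list was 6 in DE, 3 in pNE, 2 in aNE_M, 1 each in aNE, pNE_T and pNE_M, and 0 in hPSC and aNE_T. Members were 18.9% of the 53 EN1 regions open in aNE_H. Open regions at EN1 numbered 63 in pNE_H, 50 in DE, 49 in aNE_M, 46 in pNE, 40 in pNE_M, 39 in pNE_T, 38 in hPSC, 36 in aNE and 34 in aNE_T. The 53 of aNE_H include the 10 members, which the rule picked, so its place among the lists is no separate result.

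The 10 members at EN1 fell into a near and a far group on chromosome 2. The near members were chr2:118837096-118837381, which was 286 bp wide and 4.79 kb from the gene, chr2:118853862-118854013, 152 bp wide and 6.21 kb away, and chr2:118864167-118864437, 271 bp wide and 16.5 kb away. These lay on both sides of the gene, and 286 and 271 bp are above the upper quartile of member width. The other 7 lay from 134.7 to 352.7 kb away, on the side of lower coordinates, and were 127 to 180 bp wide. Of these, chr2:118602980-118603106 overlapped a start window of the long noncoding RNA gene LOC101927709. Within 50 kb of EN1, aNE_H was open at 19 of 34 regions, against 21 in pNE_H, 18 in aNE_M, 17 in DE and pNE, 16 in hPSC, aNE and aNE_T and 15 in pNE_T and pNE_M. The EN1 count moved with how the peaks were handled: it was 6 with lists of equal length, 3 with peaks within 1 kb merged and 1 in the widest 50% of each list.

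**Figure D4:**
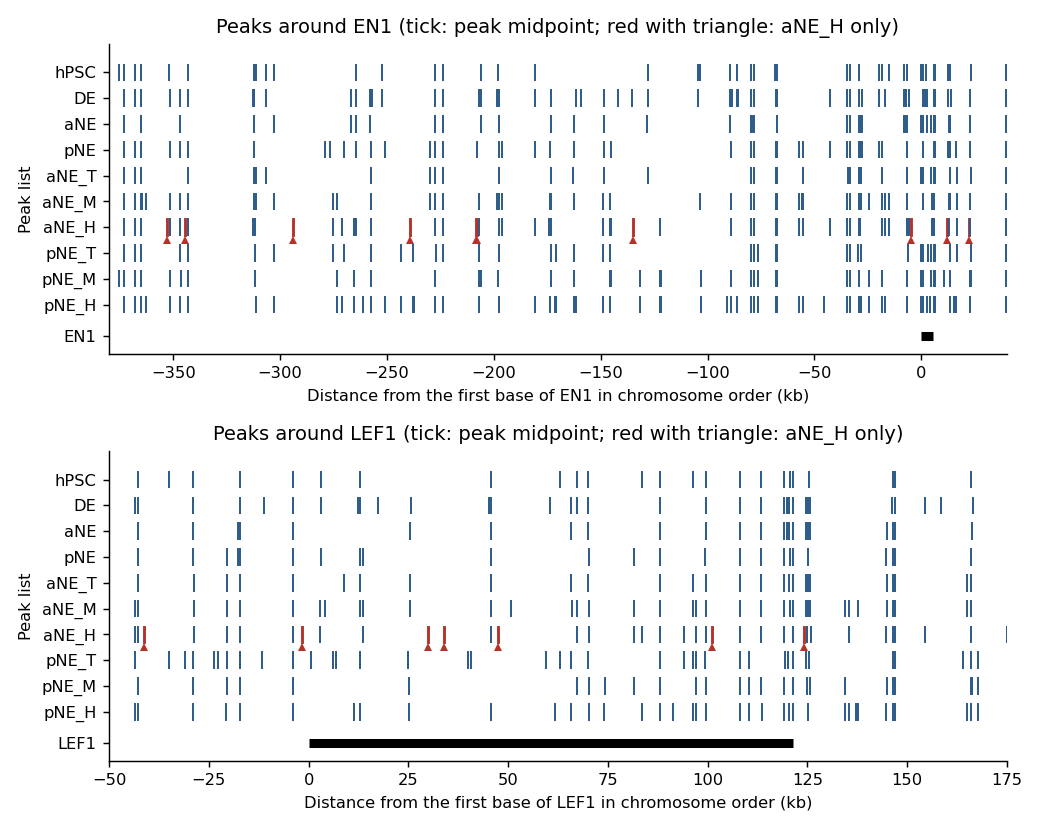
Peaks around EN1 (top) and LEF1 (bottom) in the 10 lists (y axis) against distance from the first base of the gene in chromosome order (x axis, kb); each tick is the midpoint of a peak and not its width, the black bar is the gene, and red ticks with triangles are members. The 10 EN1 members fall into 3 near the gene and 7 far to its left, while 4 of the 7 LEF1 members lie inside the gene.

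Gene lists were compared by the share of members among all regions inside the genes or within 50 kb of them, against 1.82% of all regions. The 13 lists held 170 genes, of which 167 were matched on the autosomes, and were drawn up with earlier results of these data known. Across all of them 93 of 6018 regions were members, 1.55% (1.26% to 1.89%), and 60 of the 167 genes had a member. The number of genes with a member within 50 kb was not counted over all coding genes. The midbrain-hindbrain boundary list had 14 of 491, 2.85% (1.71% to 4.73%), and the WNT list had 27 of 989, 2.73% (1.88% to 3.94%). The mesendoderm list had 4 of 180, 2.22% (0.867% to 5.57%). All 10 other lists were below 1.82%. The 1.82% lay inside the interval of the boundary and mesendoderm lists and just below that of the WNT list. With only the regions open in aNE_H counted, members were 5.93% at the WNT list (4.11% to 8.5%) and 5.32% at the boundary list (3.2% to 8.74%), and the 4.69% of all aNE_H regions lay inside both intervals. No test across lists was made, and the counts are small.

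**Figure D5:**
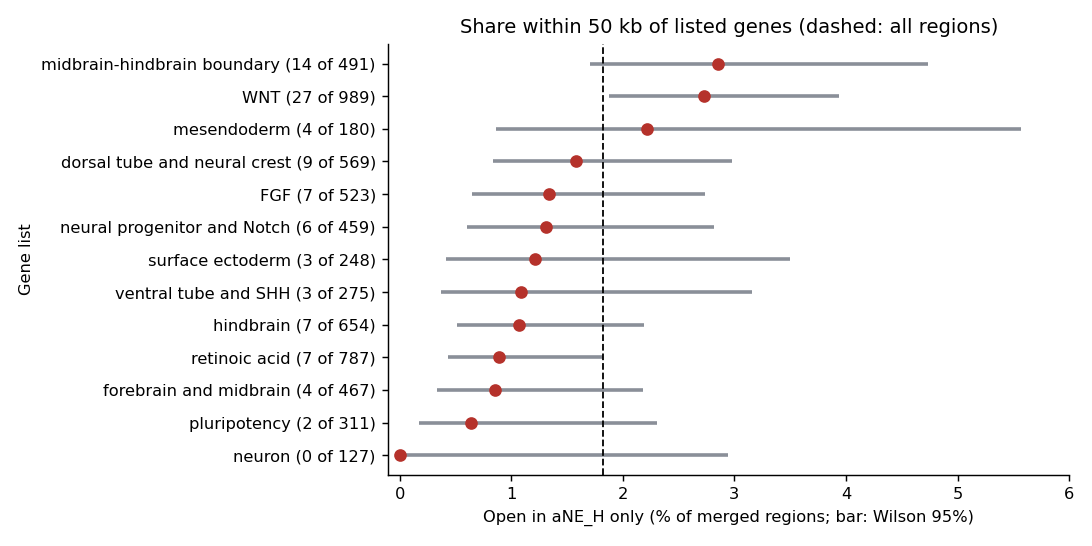
Share of members among the merged regions within 50 kb of the genes of 13 lists (x axis, %), with member and region counts beside each list (y axis); bars are Wilson 95% intervals and the dashed line is the share in all regions, 1.82%. The boundary, WNT and mesendoderm lists have points above the line, and the interval of the WNT list begins at 1.88%.

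At the boundary genes, 7 of 12 had a member, against 60 of 167 genes over all lists. PAX2, a paired-box factor of the boundary, had 4 of 69 regions, 5.8%. These were chr10:100742437-100742688 and chr10:100775096-100775221 inside the gene, chr10:100722974-100723150 12246 bp from its start, and chr10:100830062-100830212, which lay 117 bp past its last base. The aNE_H list was open at 41 PAX2 regions, pNE_H at 44, aNE_M at 36, pNE at 34, DE at 33, pNE_T at 32, hPSC, aNE_T and pNE_M at 31 and aNE at 25. PAX8, a related factor, had 3 members of 51, 5.88%, of which chr2:113245846-113246040 lay inside the gene. SPRY1, an antagonist of FGF receptor signalling, had 2 of 26, and PAX5 had 1. EN2 and CNPY1 shared 1 member, chr7:155485088-155485213, which is counted once among the 14 and for both genes among the 7. The signal genes WNT1 and FGF8 had 0 of 26 and 0 of 25, and OTX2, LMX1B and FGF17 also had 0. Each of these genes has too few regions to set 0 apart from the 1.82% of all regions. The start of PAX2, like those of EN2, PAX5 and WNT1, had a peak in all 10 lists, so the members there were additional to a start that was open throughout. Regions open only in aNE_M made up 1.22% at the boundary list against 1.28% of all regions, and those only in pNE_H made up 6.11% against 10.6%. Without PAX2 the member share was 10 of 422, 2.37% (1.29% to 4.31%). With peaks within 1 kb merged it was 0.662%, below the 1.31% of all regions in that setting.

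At the WNT genes, 12 of 22 had a member, against 60 of 167 genes over all lists. LEF1, a nuclear partner of beta-catenin and itself a WNT target, held 7 of 72 regions, 9.72%, and 20.0% of the 35 regions open there in aNE_H. The members inside LEF1 were chr4:108077500-108077660, chr4:108081356-108081564, chr4:108095050-108095181 and chr4:108148474-108148603, between 130 and 209 bp wide. Another, chr4:108171581-108171740, lay 2648 bp outside the gene and 380 bp from a start of the antisense gene LEF1-AS1. The number of single-list regions at LEF1 was 11 in pNE_T, 6 in DE, 4 in pNE_H, 2 in aNE_M, 1 in aNE_T and 0 in hPSC, aNE, pNE and pNE_M. The 7 members, picked by the rule, were thus more than the single-list regions of any list but pNE_T, with DE close at 6. Over all regions the single-list share also differs by list: 1.82% in aNE_H, 3.44% in pNE_T, 5.46% in DE and 10.6% in pNE_H. It was 4.6% in hPSC, 3.61% in pNE_M, 0.834% in pNE and 0.511% in aNE, and 1.28% in aNE_M and 1.29% in aNE_T. Open regions there numbered 37 in pNE_T and pNE_H, 35 in aNE_H and aNE_M, 30 in DE, 25 in aNE_T and pNE_M, 24 in hPSC, 23 in pNE and 20 in aNE. The LEF1 count was 5 with lists of equal length and 0 in the widest 50% of each list.

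SP5, a zinc finger factor that WNT signalling switches on, had 3 of 27 regions, 11.1%. These were chr2:170725067-170725192 and chr2:170725859-170725993, under 1 kb apart, and chr2:170747572-170747835. At SP5 aNE_H was open at 18 regions, a count that includes the 3 members picked by the rule. Open regions there numbered 17 in pNE_H, 14 in aNE_M, 13 in pNE_M and 12 in DE and aNE_T. They numbered 11 in hPSC and pNE, 10 in pNE_T and 9 in aNE. Peaks at SP5, members included, covered 9356 bp in aNE_H, 8269 in aNE_M, 8088 in pNE_H and 4541 in pNE_T. NKD1, a negative feedback regulator of the pathway, had 3 of 67, 4.48%, and WNT7B, a ligand, had 3 of 49, 6.12%. One WNT7B member, chr22:45919649-45919793, lay 572 bp from the end of the gene. DKK1, a secreted WNT antagonist, had 2 of 13, and SP8 and TCF7L2 had 2 each, of 27 and 113. AXIN2, RNF43 and NOTUM, which are common WNT targets, had 0 of 37, 0 of 45 and 0 of 27, numbers of regions too small to set apart from the 1.82% of all regions. Regions open only in aNE_M made up 1.72% at the WNT list against 1.28% of all regions, those only in aNE_T 0.809% against 1.29%, and those only in pNE_H 6.27% against 10.6%. Without LEF1 the member share was 20 of 917, 2.18% (1.42% to 3.34%). In the widest 50% of each list it was 1.47%, below the 1.68% of all regions there.

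The hindbrain list had 7 members in 654 regions, 1.07% (0.519% to 2.19%), at 4 of its 20 genes. MEIS2, a cofactor of HOX proteins, had 2 of 95, EPHA4, an Eph receptor of rhombomeres, had 2 of 67, and IRX3, an Iroquois factor, had 2 of 23. The HOX genes HOXA2, HOXA3, HOXB1, HOXB2, HOXB3, HOXB4, HOXD3 and HOXD4 had 0 members within 50 kb. They lie in clusters and their windows overlap, with 62 regions at HOXA3, 68 at HOXB3 and 45 at HOXD3, so these are not separate absences. EGR2 and GBX2, which mark rhombomeres or the front hindbrain, also had 0, of 24 and 35 regions. Each of these genes has too few regions to set 0 apart from the 1.82% of all regions. Regions open only in pNE_H made up 10.7% at this list (8.56% to 13.3%), close to the 10.6% of all regions. Under none of the 6 alternatives run did the member share here rise above that of all regions, though adding X and Y could not change these counts.

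The retinoic acid list had 7 of 787, 0.889% (0.432% to 1.82%), at 5 of 18 genes. ALDH1A2, the main retinoic acid synthesis enzyme of the embryo, and RXRA, a retinoid receptor, had 2 each, of 30 and 73. RARB, a receptor gene that retinoic acid induces, had 1 of 194, and the breakdown enzymes CYP26A1, CYP26B1 and CYP26C1 had 0 of 33, 31 and 34. Each of these enzyme genes has too few regions to set 0 apart from the 1.82% of all regions. Regions open only in pNE_H made up 11.3% here (9.28% to 13.7%). The member share was below that of all regions in 5 of the 6 alternatives, among them X and Y added, which could not change these counts. With lists of equal length the member share was 2.68%, against 2.66% of all regions there.

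The FGF list had 7 of 523, 1.34% (0.65% to 2.74%), with 1 member at each of 7 genes. One of these, chr5:142310217-142310359, lay 70 bp from the end of SPRY4, a feedback inhibitor of FGF signalling. The list of neural progenitor and Notch genes had 6 of 459, 1.31% (0.6% to 2.82%). POU3F3, a POU factor of neural progenitors, had 3 of these in 49 regions, and chr2:104854959-104855125 lay inside it, 844 bp from a start. The forebrain and midbrain list had 4 of 467, 0.857% (0.334% to 2.18%), and the dorsal tube and neural crest list had 9 of 569, 1.58% (0.834% to 2.98%). The ventral tube list had 3 of 275, 1.09%. Of the lists for other cell types, neuron had 0 of 127 (upper limit 2.94%), pluripotency had 2 of 311, 0.643%, and surface ectoderm had 3 of 248, 1.21%. In the mesendoderm list, GATA4, an endoderm and heart factor, held 3 of the 4 members, in 52 regions, with 1 of them 956 bp from the gene's end.

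The widest member was chr4:142473880-142474650, 771 bp long, inside INPP4B, a phosphoinositide phosphatase, and 25292 aNE_H peaks were wider. The WT1 member whose start sequence is printed above, chr11:32399856-32400519, was 664 bp wide, as was chr6:44788124-44788787 inside the noncoding gene LOC101929770. The next, at 658 bp, was chr17:4175879-4176536 inside ANKFY1, an endosomal protein. The other 6 were chr13:60592469-60593098, chr1:84270619-84271221, chr10:3909898-3910481, chr18:78832307-78832889, chr9:16214799-16215380 and chr10:124483944-124484519, of 630, 603, 584, 583, 582 and 576 bp. Of these 6, only the member in LHPP and the member in the noncoding gene LINC03041 lay inside a gene. SALL3, a spalt factor, and KLF6, a Krüppel-like factor, were the nearest coding genes of the members on chromosomes 18 and 10. A peak of another list lay within 1 kb of 4 of the 10 widest, at 0.105, 0.178, 0.819 and 0.947 kb.

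In windows of 500 kb the median number of members was 1, and 1262 of 5388 windows, 23.4%, had none. The fullest windows had 10 members. One, chr11:89500001-90000000, had 10 of 107 regions and holds NOX4 and the TRIM49 and TRIM64 genes. These TRIM genes have near-identical copies, and how reads were placed among them was not tested. The other, chr7:1500001-2000000, had 10 of 161 and holds MAD1L1, a spindle checkpoint protein, ELFN1 and MAFK. The EN1 window, chr2:118500001-119000000, had 9 of 123, with 13 regions open only in pNE_H and 1 only in aNE_M. The window chr12:132000001-132500000, with EP400 and FBRSL1, had 9 of 134. The window chr3:154500001-155000000 had 8 of 75 and holds no coding gene. There were 11 windows with 8 or more members, and this one is named among those with 8 for its larger share.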

How the data were processed

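OmniATAC-seq was run on 30 libraries of H1 cells, 3 per population. The deposited values are peak positions only (sequence name, start, end), 1 list per population, with no score, count or p-value. Per the submitters' processing notes, FastQC, Bowtie2, MACS2, bedtools, featureCounts, edgeR and deepTools were used with hg38; their roles, the peak threshold and how replicates were combined are not given in the sources used here. Read depth is unknown, and no replicate test was possible.

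Peaks on chromosomes 1 to 22 were merged at an overlap of 1 bp. Gene positions were taken from a RefSeq table of GRCh38 and starts from its promoter windows, which leave out chromosome 8. Shares carry Wilson 95% intervals. The members and lists were chosen with earlier results of these data known. Named were the 20 coding genes with most members (ties by share), listed genes with 3 or more members within 50 kb or a member within 1 kb of a gene end, the 10 widest members and the 5 fullest windows of 500 kb; other genes named were chosen after their values were seen, as list members or contrasts, and some list genes are not reported here. Alternatives changed the overlap, peak width, list length, threshold, merging, chromosomes and gene assignment. Python 3.11.15, numpy 2.4.6, pandas 2.3.3, scipy 1.17.1 and matplotlib 3.10.9 were used, and the merging was tested on simulated data of 60000 regions, where 0 members were missed.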

Additional observations from a re-analysis of the deposited data

Results flagged for a closer look

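The rule covers the 22 autosomes, and the lists also hold peaks elsewhere. On chromosome X, 327 of 16790 merged regions were open in aNE_H only, 1.95% (Wilson 95% interval 1.75% to 2.17%), near the 1.82% of the autosomes. On alternate, patch, unplaced and mitochondrial sequences, 356 of 23893 regions were open in aNE_H only, 1.49% (1.34% to 1.65%). These sequences often repeat parts of the main chromosomes, and how reads were shared between the copies was not tested.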

How the results depend on the processing

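The number of members, 8683, was 4059 in the widest 50% of each list and 4483 with peaks within 1 kb merged. It was 10444 when a list had to cover 50% of a region, 7001 with 500 bp windows at peak midpoints, 9294 with lists of equal length and 9016 with X and Y added. The number of genes with a member, 4727, was 2927 and 2899 in the first pair of settings and 4801 by nearest gene end. The share within 1 kb of a gene end, 6.58%, was 7.86% with 500 bp windows, 7.51% at equal length, 7.74% in the widest 50% and 5.15% with 1 kb merging. The median width, 162 bp, was 176 bp with 50% coverage, 207 bp at equal length and 333 bp in the widest 50%, and 500 bp windows fix it. The share of pNE_H among regions open in 2 lists, 32.5%, was 13.9% at equal length, 31.4% in the widest 50% and 33.6% with 1 kb merging. Equal length and the widest 50% both drop the narrowest aNE_H peaks, so their larger median widths follow from the setting. The cause of the other changes was not tested. The mesendoderm list was above the share of all regions in 6 of 6 alternatives, the WNT and boundary lists in 5 of 6 each, the retinoic acid list in 1 of 6 and the hindbrain list in 0 of 6. Adding X and Y left the members and regions of all these lists but WNT as they were, so for them it is no check. At equal length the mesendoderm share, from 4 members, was 2.74% against 2.66% of all regions. The alternatives for the gene lists, those without LEF1 or PAX2, and all but equal length and nearest gene end for genes, EN1, LEF1 and partner lists were chosen after seeing the data. No paired analysis was possible because the lists give no values per library; leaving out replicates was not run for the same reason. The alternatives on the sequence of members were not run, since no genome was used here. Read depth and peak scores are unknown, so a region without a peak may have been under the caller's threshold and not closed.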

Other observations

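By share of members among assigned regions, for genes with at least 30 regions, the first places went to genes with few members. LOC124908048 had 4 of 31 regions, 12.9%, and WDR59, a regulator of nutrient sensing, had 4 of 33, 12.1%. SUFU, a negative regulator of hedgehog signalling, had 4 of 35, 11.4%. LEF1 held rank 6 with 5 of 44 regions assigned to it, 11.4%, of which pNE_T had 6 regions of its own and pNE_H 3. MME, the membrane metallopeptidase neprilysin, had 8 of 75, 10.7%. These genes were seen after ranking, and shares from so few regions vary widely by counting alone.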
